A study of Mus musculus with 6 samples.

Results

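The 10 genes followed here mark luminal progenitors of the mouse mammary gland, and they were measured in sorted basal epithelial cells of Vim knockout and wild-type mice: Kit, Elf5, Cd14, Aldh1a3, Ltf, Lcn2, Wfdc18, Plet1, Ehf and Gata3. They were chosen by name, and they are 10 of 23337 genes in the count files. Of these names, 8 were found as written. The other 2 are listed under older names that RefSeq gives as synonyms at overlapping coordinates, Wfdc18 as Expi and Plet1 as 1600029D21Rik. Messenger RNA was sequenced from 4 knockout libraries (Vimtm1Cba/tm1Cba, homozygous for a disrupted vimentin allele) and from 2 wild-type libraries (Vimwt/wt). All mice were 15 weeks old and of the strain background 129/Sv X C57BL/6, and the labels name no Cre, transgene or treatment. Each library held the cells of 2 to 3 pooled mice, gated as live, CD45-negative, CD31-negative, CD24-low and CD49f-high, and the labels give them as p0, that is, not passaged in culture. The libraries carry 1 of 2 day codes in their deposited names: knockout 3, knockout 4 and wild type 2 have the later code, and knockout 1, knockout 2 and wild type 1 have the earlier one. The labels speak of 2 independent experiments without naming their samples. Each day code holds 2 knockout libraries and 1 wild-type library.

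The mammary epithelium has an inner luminal layer and an outer basal layer. Luminal progenitors are the proliferative, mostly hormone receptor-negative cells of the luminal layer that give rise to the milk-secreting alveolar cells, and they are known for the receptor KIT, the transcription factor ELF5 and a set of secreted defence proteins. Basal cells, which are contractile and rich in keratins 5 and 14, are separated from them in the sort by low CD24 and high CD49f. The question asked of the 10 genes is how much of their RNA the basal gate contains and whether the genotypes differ in it.

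Total counts ran from 25347967 to 31200622 per library, and log2 CPM (counts scaled to library size by TMM) correlated at 0.970 to 0.989 between libraries across genes. Vim averaged 105 ± 8.96 CPM in knockout (SD, n = 4) and 228 ± 18.5 CPM in wild type (SD, n = 2), a log2 fold change of -1.12 with an edgeR adjusted p of 0.0190, so the labels and the Vim counts go the same way. Krt14, a defining basal keratin, averaged 4236 ± 233 CPM in knockout and 4234 ± 465 CPM in wild type. The luminal keratin Krt8 averaged 642 ± 44.0 CPM in knockout and 692 ± 70.3 CPM in wild type. Ptprc, the gene of the leukocyte antigen CD45, was too low to be tested. Wild type 1 stood apart in genes of another cell type: 12 endothelial markers summed to 43.0 to 68.3 CPM in the 4 knockout libraries, against 270 CPM in wild type 1 and 111 CPM in wild type 2. The cells were measured in bulk. The number of luminal progenitors in the gate, their RNA per cell and RNA made by the basal cells themselves therefore cannot be told apart.

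The 250 bases before the first start site listed are printed for Kit, Elf5, Wfdc18 and Ltf, because these 4 varied most between libraries among the members that have a window. The windows come from RefSeq on GRCm38.p6, and all 4 lie on the plus strand. They are chr5:75574737-75574986 for Kit, chr2:103411848-103412097 for Elf5, chr11:83708754-83709003 for Wfdc18 and chr9:111019042-111019291 for Ltf. Capitals mark matches to the motifs searched, which were GGAAGT for ETS factors, TTCNNNGAA for STAT factors and AGATAA for GATA factors, on both strands.
Kit: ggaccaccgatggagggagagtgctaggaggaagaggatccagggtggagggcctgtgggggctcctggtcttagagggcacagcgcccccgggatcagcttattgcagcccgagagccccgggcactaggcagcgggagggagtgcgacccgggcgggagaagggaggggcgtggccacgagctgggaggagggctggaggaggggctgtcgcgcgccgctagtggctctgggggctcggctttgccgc
Elf5: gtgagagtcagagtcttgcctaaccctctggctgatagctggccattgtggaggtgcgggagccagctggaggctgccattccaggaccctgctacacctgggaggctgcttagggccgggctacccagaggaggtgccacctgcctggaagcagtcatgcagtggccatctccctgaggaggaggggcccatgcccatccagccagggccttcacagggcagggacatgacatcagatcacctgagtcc
Wfdc18: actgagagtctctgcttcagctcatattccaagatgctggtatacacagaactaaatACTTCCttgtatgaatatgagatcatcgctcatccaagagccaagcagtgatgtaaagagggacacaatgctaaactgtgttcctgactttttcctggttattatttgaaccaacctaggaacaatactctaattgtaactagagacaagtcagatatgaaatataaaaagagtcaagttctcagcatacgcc
Ltf: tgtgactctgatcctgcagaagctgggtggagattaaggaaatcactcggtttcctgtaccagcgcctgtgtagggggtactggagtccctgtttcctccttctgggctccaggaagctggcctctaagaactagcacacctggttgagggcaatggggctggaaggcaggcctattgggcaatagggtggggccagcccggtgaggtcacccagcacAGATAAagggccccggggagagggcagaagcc
The Wfdc18 window holds 1 ETS match, written as ACTTCC on this strand, 187 bases before the start site, and the Ltf window holds 1 GATA match that ends 26 bases before it. The Kit and Elf5 windows hold none of the 3 motifs, and no matches overlapped. Over all 32851 windows, 19.7% hold the ETS motif, 7.02% the STAT motif and 9.99% the GATA motif. Of the 10 members, 7 have such a window, and the windows of Lcn2, Plet1 and Gata3 hold no match. A match says only that these letters occur.

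Expression levels within the set covered a wide range. On the length-corrected scale (reads per kilobase of exon, scaled to library size, RPKM, as the mean over the 6 libraries with its SD), Lcn2 was highest at 1364 ± 170 RPKM. Plet1 followed at 707 ± 189 RPKM and Wfdc18 at 177 ± 107 RPKM. The library ranges of these 3 genes did not overlap with that of the next gene below. Gata3 (26.0 ± 4.18 RPKM), Cd14 (21.0 ± 6.78 RPKM), Aldh1a3 (16.0 ± 4.03 RPKM) and Ltf (13.0 ± 5.83 RPKM) came next. Ehf (3.41 ± 2.07 RPKM), Elf5 (1.78 ± 1.05 RPKM) and Kit (1.31 ± 0.639 RPKM) were lowest, and from Gata3 to Kit each gene's range overlapped with that of its neighbour. For scale, Krt14 averaged 2552 RPKM, Krt5 948 RPKM, Krt18 458 RPKM, Krt8 365 RPKM and Vim 79.5 RPKM over the same libraries. The mean of Lcn2 was thus above that of the basal keratin Krt5, and the mean of Plet1 above those of Krt18 and Krt8.

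The transcription factors were Elf5, Ehf and Gata3. Elf5, a transcription factor that drives progenitors toward the alveolar fate, had 3.99, 3.67, 2.92 and 2.48 CPM in knockout 1 to 4, against 8.61 and 2.31 CPM in wild type 1 and 2. It averaged 3.27 ± 0.691 CPM in knockout and 5.46 ± 4.45 CPM in wild type. The high wild-type mean came from wild type 1, which had 3.73 times the level of wild type 2. Ehf, an epithelial ETS factor, had 15.1, 16.6, 10.01 and 9.17 CPM in knockout 1 to 4, against 31.8 and 6.89 CPM in wild type 1 and 2. Its 2 wild-type libraries were the highest and the lowest of all 6, a 4.62-fold gap that enclosed every knockout value. Ehf averaged 12.7 ± 3.68 CPM in knockout and 19.4 ± 17.6 CPM in wild type. Ehf and Elf5 are divergent neighbours on mouse chromosome 2, at positions 103263433 to 103303196 and 103412098 to 103450988 on mm10, with start sites 108902 bases apart and 2 annotated genes between them. Gata3, the factor required for the luminal lineage as a whole, lies on chromosome 2 at 9857078 to 9878600 and had 76.3, 109, 82.7 and 84.2 CPM in knockout 1 to 4, against 70.5 and 78.5 CPM in wild type 1 and 2. It varied 1.55-fold between the highest and lowest library and was highest in knockout 2, so its libraries are ordered differently from those of Elf5 and Ehf. It averaged 88.1 ± 14.5 CPM in knockout and 74.5 ± 5.65 CPM in wild type.

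Kit, Cd14 and Plet1 encode proteins of the cell surface. Kit, the receptor for stem cell factor on chromosome 5 at 75574987 to 75656721, had 5.31, 7.86, 6.08 and 3.54 CPM in knockout 1 to 4, against 12.9 and 5.12 CPM in wild type 1 and 2. It averaged 5.70 ± 1.79 CPM in knockout and 9.02 ± 5.52 CPM in wild type, and the groups overlapped because wild type 2 fell inside the knockout range. Cd14, the co-receptor that hands bacterial lipopolysaccharide to TLR4, lies on chromosome 18 at 36725067 to 36726654. It had 29.4, 18.5, 36.0 and 27.7 CPM in knockout 1 to 4, against 48.7 and 28.2 CPM in wild type 1 and 2, and wild type 1 was again the highest library. It averaged 27.9 ± 7.21 CPM in knockout and 38.4 ± 14.5 CPM in wild type. Plet1, a glycolipid-anchored protein of epithelial progenitors on chromosome 9 at 50494525 to 50505639, had 1255, 945, 1372 and 1691 CPM in knockout 1 to 4, against 880 and 1685 CPM in wild type 1 and 2, so wild type 1 was its lowest library. Its genotype means were nearly level, at 1316 ± 308 CPM in knockout and 1283 ± 569 CPM in wild type. The gene 2310014F07Rik overlaps Plet1 on the opposite strand with 1 to 34 counts per library, and counting took strand into account.

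Aldh1a3, the dehydrogenase that makes retinoic acid from retinaldehyde, lies on chromosome 7 at 66390893 to 66427477. It had 66.6, 30.2, 66.3 and 51.1 CPM in knockout 1 to 4, against 51.2 and 60.8 CPM in wild type 1 and 2. Knockout 2 was the low library, and the other libraries lay between 51.1 and 66.6 CPM. Genotype means were nearly level, at 53.6 ± 17.2 CPM in knockout and 56.0 ± 6.80 CPM in wild type.

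The secreted proteins include Ltf (lactoferrin, an iron-binding antimicrobial protein, chromosome 9 at 111019292 to 111042766). Every knockout library was above the wild type of its own day code for Ltf, as for Gata3. Both knockouts were above wild type for 31% of all genes in the earlier code and 37.4% in the later one. The share above in both codes was not counted. Ltf had 24.2, 33.5, 52.7 and 57.9 CPM in knockout 1 to 4, against 18.7 and 27.4 CPM in wild type 1 and 2. The groups overlapped because knockout 1 lay below wild type 2. Ltf averaged 42.1 ± 15.9 CPM in knockout and 23.0 ± 6.15 CPM in wild type. Wfdc18, an extracellular proteinase inhibitor of the whey acidic protein family on chromosome 11 at 83709004 to 83711360, had 101, 60.8, 70.4 and 61.2 CPM in knockout 1 to 4, against 212 and 73.0 CPM in wild type 1 and 2. Wild type 1 had 2.90 times the level of wild type 2, while wild type 2 lay inside the knockout range. Within each day code both knockout libraries were below wild type for Wfdc18. Lcn2 (lipocalin 2, which captures bacterial siderophores, chromosome 2 at 32384637 to 32387739) had 953, 1146, 1278 and 1218 CPM in knockout 1 to 4, against 1339 and 1047 CPM in wild type 1 and 2. Lcn2 was the steadiest member, with a 1.41-fold range over the 6 libraries and means of 1148 ± 141 CPM in knockout and 1193 ± 206 CPM in wild type.

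**Figure D1:**
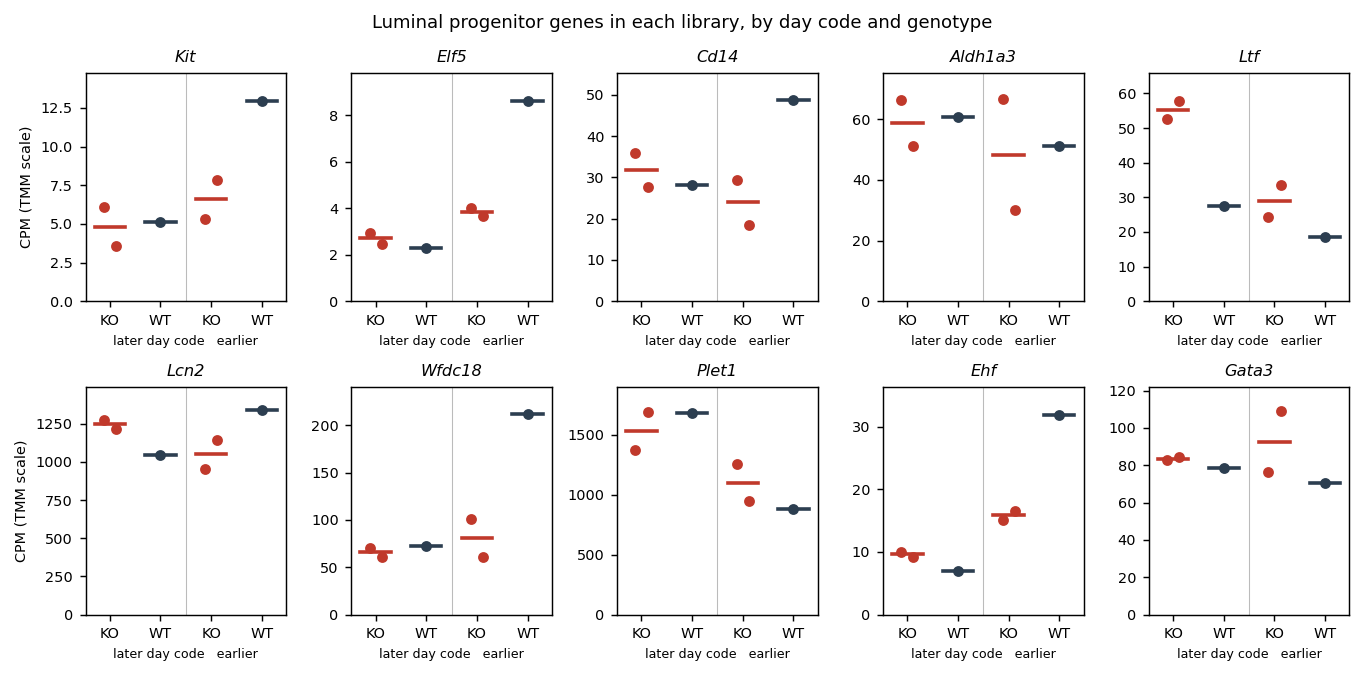
CPM on the TMM scale (linear axes from 0) of the 10 members in each library, with knockout left of wild type and the later and the earlier day code side by side; points are libraries and bars are means. Wild type 1, of the earlier day code, is the highest point for Kit, Elf5, Cd14, Lcn2, Wfdc18 and Ehf. Within each day code Ltf and Gata3 are higher in both knockout libraries than in wild type, and Wfdc18 is lower in both.

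Wild type 1 was the highest library for 6 of the 10 members (Kit, Elf5, Cd14, Lcn2, Wfdc18 and Ehf) and the lowest for 3 (Ltf, Plet1 and Gata3). Over all 13925 genes tested, 21.6% had wild type 1 as the highest library. The share with wild type 1 as the lowest library was not counted. As a deviation from the gene's mean log2 CPM, wild type 1 was at 1.30 for Wfdc18, 1.28 for Ehf, 1.25 for Elf5, 1.04 for Kit and 0.69 for Cd14, and at -0.81 for Ltf and -0.52 for Plet1. Its summed endothelial (270 CPM), milk protein (295 CPM) and fibroblast (169 CPM) markers were also the highest of the 6 libraries. The part of such cells in these values was not tested.

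**Figure D2:**
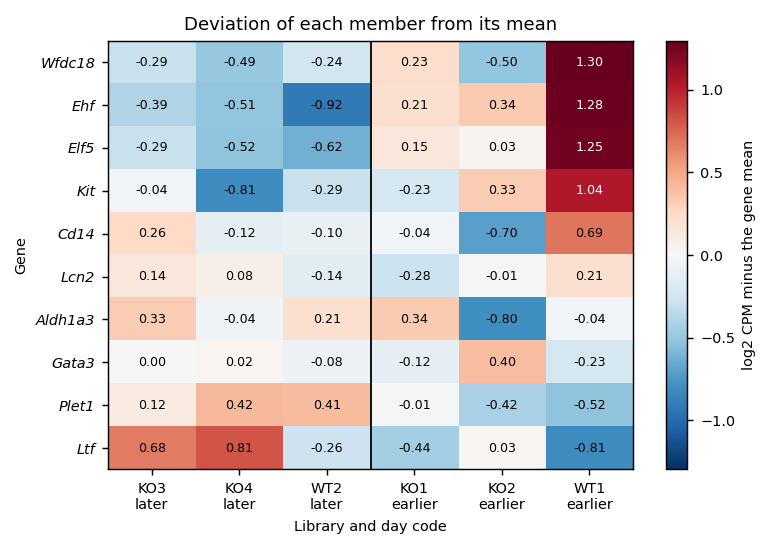
Log2 CPM of each member minus its mean over the 6 libraries, with genes ordered by their value in wild type 1 and libraries grouped by day code, the later one at left. Values from 1.04 to 1.30 in wild type 1 mark Wfdc18, Ehf, Elf5 and Kit, and -0.81 marks Ltf in the same library.

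Set against wild type over all 6 libraries, no member was called. By edgeR's quasi-likelihood test with genotype as the only term and a Benjamini-Hochberg adjusted p under 0.05 over all genes, 11 genes passed, 0.079% of those tested, and 0 of the 10 members did. DESeq2 and limma-voom also called 0 members, and at an unadjusted p under 0.05 the edgeR count was 2 (Ltf and Wfdc18), where 8.57% of all genes reached that p. The log2 difference of knockout over wild type was 0.87 for Ltf (SE 0.35, edgeR adjusted p = 0.546), and -0.96 for Wfdc18 (SE 0.37, edgeR adjusted p = 0.523). Elf5 (-0.75, SE 0.46), Kit (-0.67, SE 0.40), Ehf (-0.61, SE 0.51) and Cd14 (-0.46, SE 0.28) had negative values within about 2 SE of 0, and Aldh1a3 (-0.06), Lcn2 (-0.06), Plet1 (0.04) and Gata3 (0.24) were nearer to it. The median over the members was -0.26, against -0.01 over all genes tested. Removing wild type 1 turned it to 0.16, and removing wild type 2 gave -0.51. All 10 members overlapped between the genotypes. Over all genes, 7.6% had every knockout library above both wild types and 8.57% had every knockout library below both.

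The signs of 7 members rested on wild type 1. Without it, the log2 fold change was 0.52 for Elf5, 0.17 for Kit, 0.90 for Ehf, 0.03 for Wfdc18, 0.15 for Lcn2 and 0.00 for Cd14, and that of Plet1 was -0.34. Ltf kept a positive value without any single library, between 0.64 and 1.17.

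With the day code as a replicate block, Ltf rose: its log2 fold change was 0.82 (SE 0.16, edgeR adjusted p = 0.0370), and it was the only member called among 217 genes, 1.56% of those tested (1.12% were called higher). This call depended on the libraries kept. Leaving out a wild-type library ended it, and the contrast then comes from 1 day code only. The log2 fold change was 1.03 with wild type 1 removed and 0.63 with wild type 2 removed. Removal of knockout 2, 3 or 4 gave edgeR adjusted p-values of 0.0531, 0.0733 and 0.111. Removal of knockout 1 gave an edgeR adjusted p of 5.97e-04. The fold change stayed between 0.63 and 1.03 on the log2 scale.

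Within the later day code, knockout over wild type was close to 0 for most members, while within the earlier one several members lay well below 0. The median log2 fold change of the members was 0.13 in the later code and -0.66 in the earlier code, against -0.01 and 0.00 over all genes tested. In the later code both knockout libraries were above their wild type for 5 members (Elf5, Ltf, Lcn2, Ehf and Gata3; 37.4% of all genes) and below it for 1 (Wfdc18; 40% of all genes). In the earlier code both were above wild type for 3 members (Ltf, Plet1 and Gata3; 31% of all genes) and below it for 6 (Kit, Elf5, Cd14, Lcn2, Wfdc18 and Ehf; 33.7% of all genes). The knockout mean of Wfdc18 was 0.902 times the wild-type level in the later code and 0.382 times it in the earlier code, and that of Ehf was 1.39 times and 0.498 times. For Kit the same ratios were 0.940 and 0.510, for Elf5 1.17 and 0.445, and for Cd14 1.13 and 0.491. The knockout mean of Ltf was 2.02 times the wild-type level in the later code and 1.54 times it in the earlier code.

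**Figure D3:**
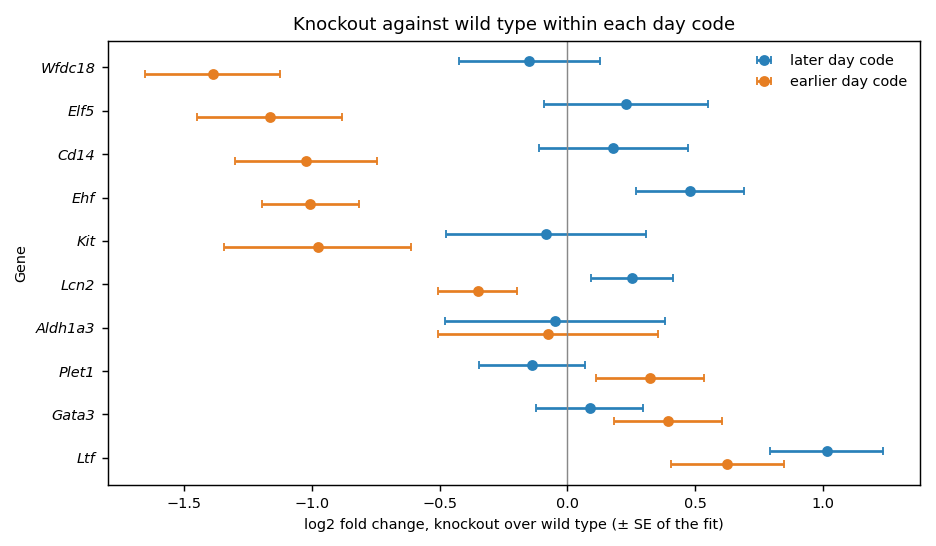
Log2 fold change, knockout over wild type, for each member within the later (blue) and the earlier (orange) day code, with bars of 1 SE of the fit. Wfdc18, Elf5, Cd14, Ehf and Kit lie between -1.39 and -0.98 in the earlier code and between -0.15 and 0.48 in the later code. Ltf and Gata3 lie above 0 in both.

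No member passed the test within either day code. In the later code edgeR called 4 genes, 0.0287% of those tested, 0 of them members, with 1 member (Ltf) and 9.7% of all genes at an unadjusted p under 0.05. In the earlier code edgeR called 32 genes, 0.23%, 0 of them members, with 6 members (Kit, Elf5, Cd14, Ltf, Wfdc18 and Ehf) and 9.32% of all genes at an unadjusted p under 0.05. Each contrast has 1 wild-type library, whose spread is taken from the other groups. On the log2 scale Ltf was at 1.01 (SE 0.22, edgeR adjusted p = 0.224) in the later code and 0.62 (SE 0.22, edgeR adjusted p = 0.425) in the earlier code. Wfdc18 had -0.15 (SE 0.28, edgeR adjusted p = 0.908) in the later code and -1.39 (SE 0.26, edgeR adjusted p = 0.130) in the earlier code. Ehf had 0.48 (SE 0.21, edgeR adjusted p = 0.523) in the later code and -1.01 (SE 0.19, edgeR adjusted p = 0.111) in the earlier code. The effect of the knockout on Elf5 was 0.23 (SE 0.32) in the later code and -1.16 (SE 0.28) in the earlier code, that on Cd14 was 0.18 (SE 0.29) and -1.02 (SE 0.28), and that on Kit was -0.08 (SE 0.39) and -0.98 (SE 0.36). Lcn2 was at 0.25 (SE 0.16) in the later code and -0.35 (SE 0.16) in the earlier code, and Plet1 at -0.14 (SE 0.21) and 0.32 (SE 0.21). Gata3 (0.09 and 0.39) and Aldh1a3 (-0.05 and -0.08) kept 1 sign in both. In the earlier code, leaving out knockout 1 brought the members called to 7 (5 lower and 2 higher), where 10.3% of all genes were called. Leaving out knockout 2 brought them to 4, all lower, where 5.02% of genes were called, and leaving out knockout 3 to 1 (Wfdc18, lower), where 1.01% were called. The counts there rest on single libraries.

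The difference of the knockout effect between the day codes was tested directly, as the later minus the earlier one. edgeR called 0 members and 0 genes in all, 0% of those tested, with 5 members at an unadjusted p under 0.05 (Elf5, Cd14, Lcn2, Wfdc18 and Ehf), which 4.21% of all genes reached. The largest differences among the members were 1.48 for Ehf (SE 0.29), 1.39 for Elf5 (SE 0.43), 1.24 for Wfdc18 (SE 0.39) and 1.20 for Cd14 (SE 0.41), each with an edgeR adjusted p of 0.998. Elf5, Lcn2 and Ehf had both knockout libraries above wild type in the later code and below it in the earlier code, a pattern that 8.9% of all genes had, and 0 members had the opposite pattern, which 9.11% of genes had.

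Between the day codes themselves, with genotype in the model, 2 members rose in the later one and 0 fell, where 895 genes, 6.43% of those tested, were called, 3.39% higher and 3.04% lower. The log2 difference of later over earlier was 0.81 for Ltf (SE 0.14, edgeR adjusted p = 0.0128), and 0.63 for Plet1 (SE 0.15, edgeR adjusted p = 0.0416), with all 3 later libraries above all 3 earlier ones for Plet1, as for 12.6% of all genes. The Ltf call ended without knockout 4 (edgeR adjusted p = 0.0736), and the Plet1 call without knockout 2 or knockout 4 (edgeR adjusted p = 0.0924 and 0.190). Neither call held without a wild type. Leaving out either wild type leaves the same 4 knockout libraries to give this contrast, so these removals are not separate checks. The log2 difference was then 0.94 for Ltf and 0.48 for Plet1, whichever wild type was removed. Elf5 and Ehf had all 3 later libraries below all 3 earlier ones, with log2 fold changes of -0.97 (SE 0.30, edgeR adjusted p = 0.0815) and -1.21 (SE 0.29, edgeR adjusted p = 0.0534), an order that 13.5% of all genes had. Kit had -0.75 (SE 0.28, edgeR adjusted p = 0.150), so the values of the set ran in both directions between the codes. Some settings added calls that were lower in the later code. Kit and Ehf passed with knockout 1 removed (edgeR adjusted p = 0.0310 and 0.0405), where 13.4% of all genes were called. Kit passed with knockout 3 removed (edgeR adjusted p = 0.0442), where 3.51% were called. With no low-count filter Elf5 passed (edgeR adjusted p = 0.0303), and the share of all genes was not counted there.

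Markers of other cells that the gate could hold were summed in each library. Luminal keratin and junction genes summed to 4477, 4293, 4396 and 4252 CPM in knockout 1 to 4, against 4249 and 4544 CPM in wild type 1 and 2, and 0 of 13 passed in either direction by genotype (edgeR, with 0 at an unadjusted p under 0.05). The median of the list was less even, at 223, 172, 149 and 150 CPM in knockout 1 to 4, against 188 and 97.7 CPM in wild type 1 and 2. Between the day codes edgeR called 2 of the 13 lower in the later code (3.04% of all genes) and 0 higher. Basal genes summed to 20932 to 24584 CPM in knockout, against 22994 and 24418 CPM in wild type, with 0 of 13 called (edgeR, 1 at an unadjusted p under 0.05). The endothelial list had 1 of 12 called, Sele, an adhesion molecule of activated endothelium, which fell to 10.3 ± 1.68 CPM in knockout, against 32.0 ± 4.22 CPM in wild type (log2 fold change -1.64, edgeR adjusted p = 0.0218). All 12 endothelial markers had a negative log2 fold change, with a median of -1.98, and an unadjusted p under 0.05. Pecam1, which encodes the CD31 of the gate, had 3.46 to 7.35 CPM in knockout, against 30.4 and 12.1 CPM in wild type 1 and 2. Milk protein genes had 1 of 8 tested called, Csn1s2a, a casein, at 0.118 ± 0.0928 CPM in knockout and 5.40 ± 3.55 CPM in wild type (log2 fold change -5.41, edgeR adjusted p = 0.0218). Milk protein sums were 170, 152, 247 and 257 CPM in knockout 1 to 4, against 295 and 256 CPM in wild type 1 and 2. By edgeR, 4 of the 8 tested had an unadjusted p under 0.05, as 8.57% of all genes did. Their median log2 fold change was -0.97 by genotype, with 1 value above 0, and -2.25 within the earlier code, with 0 above 0. Wild type 1 was the highest library for 8 of the 11 listed (21.6% of all genes tested), and 4 of the 11 stayed below 1 CPM. The part of these cells in the members' values was not tested.

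**Figure D4:**
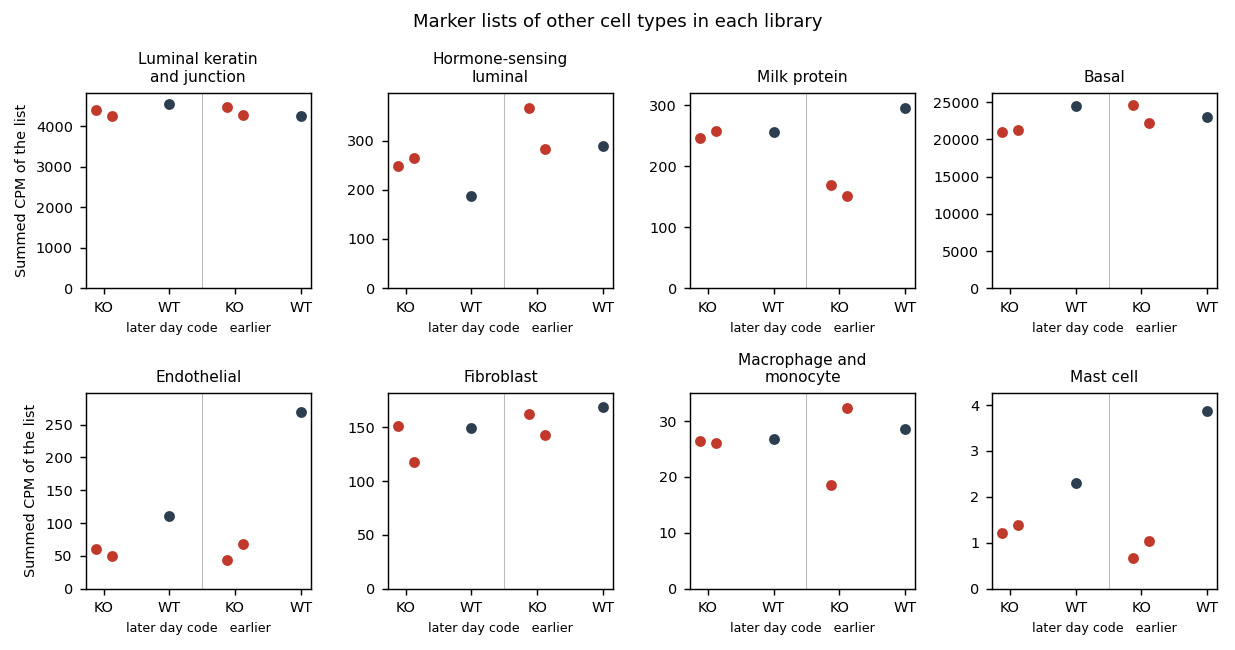
Summed CPM (linear axes from 0) of 8 marker lists in each library, knockout left of wild type, with the later and the earlier day code side by side. Wild type 1, of the earlier day code, is highest for the endothelial (270 CPM), milk protein (295 CPM), fibroblast (169 CPM) and mast cell (3.86 CPM) lists. The luminal keratin and junction sums lie between 4249 and 4544 CPM.

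Mast cells also carry KIT, and 7 of 9 mast cell markers (Cpa3, Mcpt4, Cma1, Tpsb2, Tpsab1, Fcer1a and Ms4a2) were at 0 in every library, with sums of 0.660 to 1.38 CPM in knockout, against 3.86 and 2.31 CPM in wild type 1 and 2. Macrophages carry CD14, and their marker genes summed to 18.5 to 32.4 CPM in knockout, against 28.7 and 26.8 CPM in wild type, and 2 of 14 were high enough to be tested, with 0 called. Neutrophils store LTF and LCN2 protein, and neutrophil genes summed to 1.23 to 2.75 CPM in knockout, against 2.31 and 3.27 CPM in wild type, with 3 tested and 0 called. Fibroblast genes (9 tested), T cell and innate lymphoid genes (2 tested) and melanocyte genes (1 tested) had 0 called by genotype, with 2, 0 and 0 at an unadjusted p under 0.05. The macrophage and neutrophil lists had 0 such genes and the mast cell list had 2, Hdc and Gata2. The hormone-sensing luminal list had 0 of 11 called, with 5 at an unadjusted p under 0.05, which 8.57% of all genes reached. Its median log2 fold change was 0.54, and 10 of 11 values were above 0. Tbx3 was at 0.66 (edgeR adjusted p = 0.255) and Ly6a at 1.59 (edgeR adjusted p = 0.269).

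The wider luminal progenitor list, 13 further genes, also had 0 called by genotype in edgeR. At an unadjusted p under 0.05 there were 7 of the 13, where 8.57% of all genes reached that p. DESeq2 called 2 of them, among 262 genes in all. The list had a median log2 fold change of -0.39 and 3 values above 0. With the day code as a replicate block 2 were called, where 1.56% of all genes were. Slpi, a secreted protease inhibitor, had 1286, 1884, 2080 and 2160 CPM in knockout 1 to 4, against 961 and 1184 CPM in wild type 1 and 2, and its log2 fold change was 0.78 (edgeR adjusted p = 0.0415). Rspo1, an activator of Wnt signalling, had 2.42, 1.502, 1.21 and 1.26 CPM in knockout 1 to 4, against 8.64 and 2.69 CPM in wild type 1 and 2, and its log2 fold change was -1.68 (edgeR adjusted p = 0.0286). Trf, which encodes transferrin, fell within the earlier code to 198 and 265 CPM in knockout 1 and 2, against 737 CPM in wild type 1 (log2 fold change -1.67, edgeR adjusted p = 0.0475). In the later code Trf had a log2 fold change of -0.10 (edgeR adjusted p = 0.927).

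Pathways of the members had 0 genes called by genotype in edgeR. At an unadjusted p under 0.05, which 8.57% of all genes reached, the lists differed. The counts were 2 of 14 tested for KIT, 3 of 11 for CD14 and TLR4, and 1 of 12 for retinoic acid. They were 3 of 19 for the ETS factors, 4 of 5 for the GATA factors with partners and 3 of 14 for the secreted genes. The list around KIT had 0 of 14, a median of -0.18, and its smallest p-values belonged to Dusp6 (-0.36, edgeR adjusted p = 0.432), a phosphatase of ERK, and Etv5 (-0.42, edgeR adjusted p = 0.462). Kitl, the KIT ligand, had 540 ± 69.4 CPM in knockout and 448 ± 69.8 CPM in wild type, a log2 fold change of 0.27 (edgeR adjusted p = 0.756). The CD14 and TLR4 list had 0 of 11 and a median of 0.03, with Nfkbia, the inhibitor of NF-kappaB, at 0.84 (edgeR adjusted p = 0.269) by genotype and called with the replicate block (0.86, edgeR adjusted p = 0.0139), and Ly96, the TLR4 partner, at -0.79 (edgeR adjusted p = 0.447). The retinoic acid list had 0 of 12 and a median of 0.16, with Cyp26b1 at 0.67 (edgeR adjusted p = 0.583) and Aldh1a1 at 0.75 (edgeR adjusted p = 0.717). Other ETS factors (0 of 19, median -0.03, with Elf4 at 0.48 and an edgeR adjusted p of 0.422) and GATA factors with their partners (0 of 5, median 0.26, with Zfpm1, a GATA cofactor, at 0.54 and an edgeR adjusted p of 0.273) were the remaining transcription factor lists. Secreted antimicrobial and iron-binding genes had 0 of 14 and a median of -0.13.

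The genes nearest to the members' median profile were found by the root mean square difference of their centred log2 CPM over the 6 libraries from it. The nearest 5 of 11289 candidates were BC057079, Eng (endoglin, known from endothelium), Pdxk (pyridoxal kinase), Wdr11 and Glt8d1, at 0.06 to 0.08. The median profile was 0.45 in wild type 1, and between -0.19 and 0.06 in the other libraries. Single members ran from 1.30 (Wfdc18) to -0.81 (Ltf) in wild type 1. The median blends these opposite patterns, so genes near it need not be like any 1 member.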

How the data were processed

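Messenger RNA of 6 pooled, sorted samples was counted per gene. The deposited files hold raw counts, which the authors made with featureCounts 1.5.1 in the reverse-stranded setting (option 2) over exons of the UCSC mm10 annotation, without the options for multi-mapped reads or reads overlapping several genes, per the file headers. The submitters' processing notes list Subread 1.5.1, STAR 2.5.2b and bcl2fastq 2.17. The exon length that the authors deposited beside each count was used for RPKM.

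Counts were compared with edgeR 4.0.16 in R 4.3.3 (filterByExpr, which kept 13925 genes and set 9412 aside; TMM; glmQLFit, robust; glmQLFTest, 2-sided). P-values were adjusted over all genes tested, and log2 CPM used a prior count of 2. Fits held genotype alone, genotype with the day code, or 1 mean per genotype and day code. DESeq2 1.42.0, limma-voom from limma 3.58.1, other size factors, other filters and leaving out each library were the alternatives. Day code pairs the libraries: deviations from the group means correlated at 0.25 to 0.41 within a code and were negative across codes. With 2 wild-type libraries these deviations mirror each other. P-values measure the spread between pools. With 1 mean per genotype and day code, that spread comes from the knockout pools only, as each wild-type mean rests on 1 library.

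Tested on simulated counts with 200 genes changed, the genotype comparison recovered 56% of 2-fold and 96% of 4-fold changes over 13720 genes, with 8.43% of its calls false. With the replicate block 83% and 97% were recovered over 13736 genes, with 10.9% false. Recovery was 57% and 94% within the later code (13720 genes, 12.7% false), 47% and 92% within the earlier one (13735 genes, 7.95% false), 33% and 86% for the difference between codes (13717 genes, 15% false) and 84% and 99% between codes (13718 genes, 8.96% false). Each false share exceeded the 0.05 level of the adjusted p. Only well-counted genes were changed, and the genotype simulation held no separate day effect. It had 166 calls, against 11 in the data. Fewer calls mean a stricter cutoff, so recovery in the data may be lower.

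The members and lists were chosen with earlier results of these data known. Besides the members, the genes named are the called genes of each list or the 2 with the smallest p, fixed checks such as Krt8, and the 5 nearest profiles. Kitl was chosen after its values were seen, and Nfkbia, Rspo1 and Slpi were also called with the replicate block.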

Additional observations from a re-analysis of the deposited data

Results flagged for a closer look

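Elf5, Lcn2 and Ehf had both knockout libraries above their wild type in the later day code and below it in the earlier one. The knockout effect in the later code minus that in the earlier code was 1.39 on the log2 scale for Elf5 (SE 0.43), 0.60 for Lcn2 (SE 0.22) and 1.48 for Ehf (SE 0.29). By edgeR's test of that difference the adjusted p was 0.998 for each, so none of the 3 passed over all genes. In every case the difference is between 2 knockout libraries and 1 wild-type library in each code.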

How the results depend on the processing

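Over all genes, the 11 called by genotype became 217 with the day code as replicate block and 262 with DESeq2, and 3 to 15 when each library was left out. The 0 members called became 1 (Ltf) with the replicate block, and among the 13 further luminal progenitor genes 0 became 2 with the replicate block and 2 with DESeq2. Within the earlier code the 0 members called became 1 (Ehf) with no low-count filter. Without single knockout libraries they ranged from 0 to 7, where 0.938% to 10.3% of all genes were called. Within the later code they became 1 (Ltf) with no filter. The share of all genes called with no filter was not counted. Without single knockout libraries they ranged from 0 to 1 in the later code, where 0.368% to 7.91% of all genes were called. For the difference between codes they ranged from 0 to 3, where 0.0216% to 2.67% of all genes were called. Between codes the 2 members called, both higher in the later code, ranged from 0 to 4, where the added ones (Kit and Ehf) were lower. Without single knockout libraries 0.865% to 13.4% of all genes were called between codes. With the replicate block the 1 member called ranged from 0 to 1, where 0.476% to 6.84% of all genes were called without single knockout libraries. Each code has 1 wild type, so leaving out wild types gave no value within codes.

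With the numbers of the sample titles as replicate block (4 libraries), Plet1 turned to -0.16 and Ehf to 0.071. Leaving out single libraries turned the genotype direction of 8 members, with log2 fold changes of -1.18 to 0.17 for Kit, -1.39 to 0.52 for Elf5, -0.80 to 0.0048 for Cd14, -0.18 to 0.15 for Aldh1a3, -0.22 to 0.15 for Lcn2, -1.53 to 0.026 for Wfdc18, -0.34 to 0.58 for Plet1 and -1.32 to 0.90 for Ehf. Between codes it turned Cd14 (-0.28 to 0.41), Aldh1a3 (-2.89e-05 to 0.64), Lcn2 (-0.086 to 0.25) and Gata3 (-0.16 to 0.14). The cause was not tested.

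Counting error is small for most members at this depth. The limits are 2 wild-type libraries, 1 per day code, and pooled mice.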
